A study of Homo sapiens with 6 samples.

Results

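Urokinase, its receptor and the proteins that restrain or localize plasmin formation were followed in a lung fibroblast line given a lentivirus. The genes were PLAU, PLAUR, PLAT, SERPINE2, SERPINB2, SERPINB7, SERPINF1, ANXA2 and S100A10. They were found as every probe set of the deposited array table that carries exactly 1 gene symbol and whose symbol is 1 of these 9. The rule found 8 of the 9 genes, on 36 of the 39341 probe sets, and 1 gene, SERPINB2, had no probe set under its symbol in the annotation used. SERPINB2 could be placed by another route and is described further on without a test.

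Expression was measured on PrimeView arrays, an Affymetrix chip that reads mostly the 3′ ends of transcripts. All 6 arrays held RNA of HFL-1, an established human fetal lung fibroblast line, grown in F-12K medium with 10% fetal bovine serum. For 3 arrays, labelled HYAL1 overexpression, the cells had received a GV492 lentivirus carrying full-length human HYAL1, a hyaluronidase that cuts hyaluronan, and for 3 arrays, labelled control, the vector CON335. Both groups were infected at 40% confluence with polybrene at 5 μg/ml, had their medium changed after 16 h and were described as transiently infected, so that both carried virus. The sources used here do not give the time of harvest. The titles call the replicates biological and give nothing of separate cultures, so p-values measure only the spread between these samples, which may be technical.

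HYAL1 itself went against the labels. Its log2 value was 4.81, 4.82 and 4.67 on the HYAL1-labelled arrays and 7.48, 7.49 and 7.46 on the control-labelled arrays. The group means were 4.77 ± 0.0818 and 7.48 ± 0.0188 (SD, n = 3 each) and differed by 2.71. This probe set has no symbol in the annotation and was named through its 6 values in the study's list of changed genes, where a gene had to differ, so the difference is a description without a test. HYAL1 lay below the median of the array's background probe sets on each HYAL1-labelled array. In the study's own list of changed genes the same arrays stand under the opposite headings for 6 of the 6 genes compared. The place of this probe set in the transcript, relative to the coding sequence that the virus carried, was not given. Every direction below is therefore by label only, and the labels and the HYAL1 values disagree on which group held more HYAL1 RNA.

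Plasminogen is a zymogen that becomes plasmin, a broad protease of fibrin and matrix, when it is cut by urokinase (PLAU) or by tissue plasminogen activator (PLAT). PLAUR, the urokinase receptor, holds urokinase at the cell surface, and the complex of annexin A2 (ANXA2) with S100A10 binds plasminogen and tissue plasminogen activator there. Serpins trap the activators by serving as bait for the protease. In lung, plasmin clears fibrin after injury, and fibroblasts are a source of urokinase and its receptor.

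PLAUR and SERPINB7 were higher on the control-labelled arrays, by 0.23 and 0.30 on the log2 scale, and were the 2 of the 8 measured genes that passed the test across all genes. That is 25.0% of them, against 1.66% of all 15277 genes tested (253 genes). The genes were chosen with earlier results of these data known, so these shares are a description and no test of the pathway. The remaining 6 genes did not pass, though 4 of the 8 had an unadjusted p under 0.05 (17.4% of all genes), and 4 passed where limma tied the prior variance to the level (6.7% of all genes). That alternative also called 5 of 10 fibroblast markers higher on the control-labelled arrays and 1 higher on the HYAL1-labelled arrays. For 18 substrates of plasmin and urokinase it called 5 and 1, and for 16 coagulation genes and thrombin receptors 3 and 1. PLAU and S100A10, which did not pass here, are in the study's own list of changed genes. The differences were small: the 2 that passed came to 1.18-fold and 1.23-fold. The median difference of the 8 genes, control-labelled minus HYAL1-labelled, was 0.030, and the median size of a difference was 0.069, while over all genes the median difference was -0.01 and the median size 0.050. The HYAL1-labelled and control-labelled values did not overlap for 5 of the 8 genes, and 24.4% of all genes were so separated. Among these 5 genes, 4 had the higher values on the control-labelled arrays (10.3% of all genes) and 1 on the HYAL1-labelled arrays (14.1% of all genes).

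**Figure D1:**
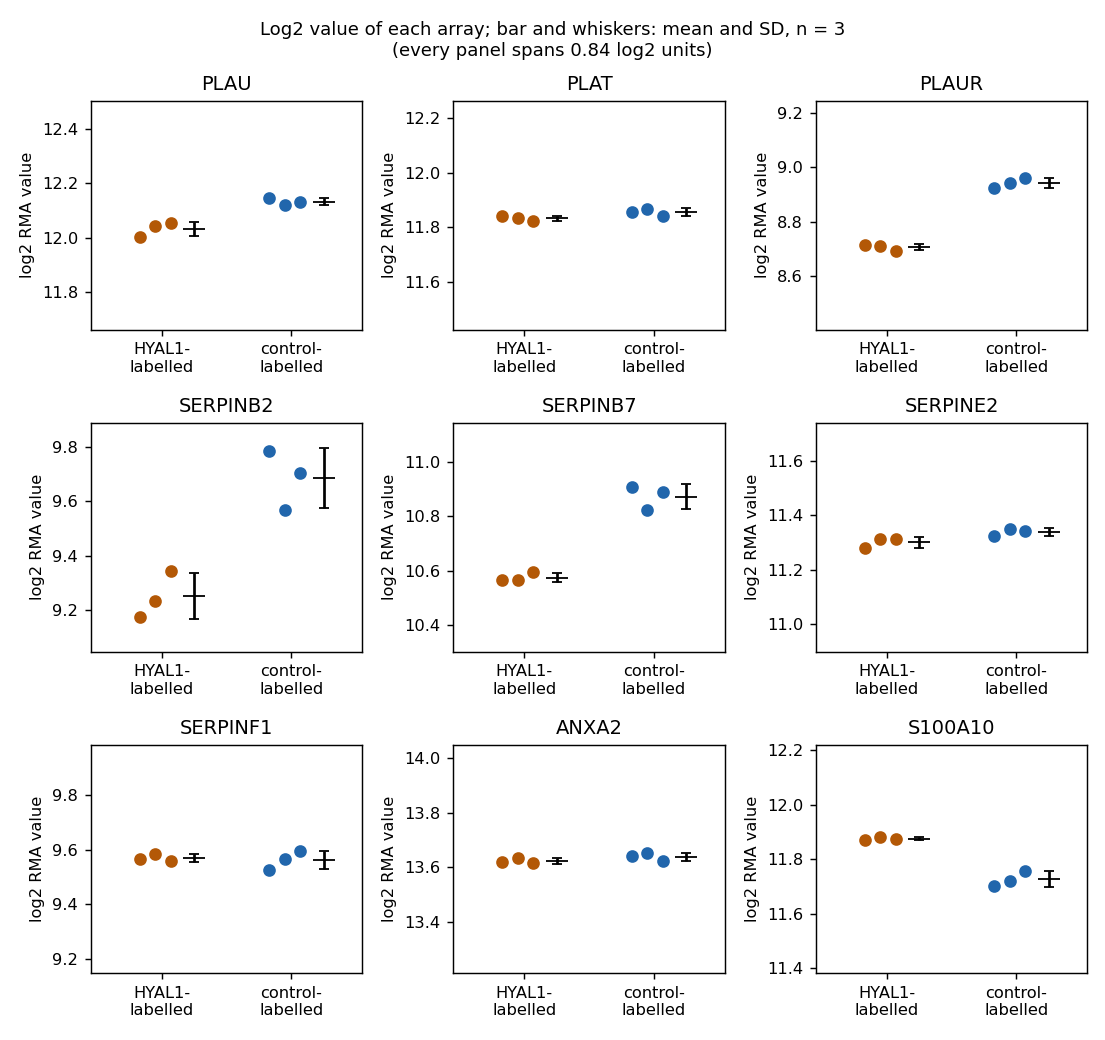
Log2 RMA value (y axis) of each array for the 9 genes, HYAL1-labelled and control-labelled arrays side by side, with mean and SD beside them (n = 3). The axes differ in level and all have the same height, so that the separated groups of SERPINB2, SERPINB7, PLAUR and S100A10 can be set against the overlapping groups of PLAT, SERPINF1 and ANXA2.

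The arrays were alike as a whole. Array medians lay between 6.97 and 7.01, and the correlation of 2 arrays over all probe sets was 0.998 to 0.999 within a group and 0.998 between groups. All 8 genes lay above the background median on all 6 arrays. So did 8489 of all 15277 genes, while 6177 genes did so on no array. The share of all genes that passed therefore includes genes near background. Without the lowest 30% of levels, 673 of 10694 genes and 3 of the 8 passed. Fibroblast markers fitted the label of the cell line, with 10 of 10 above background on every array, whereas 3 of 8 epithelial, 1 of 8 endothelial and 2 of 6 leukocyte markers measured were. The endothelial markers PECAM1, VWF and CDH5 were above background on no array. The summed level of the fibroblast markers ran from 15.44 to 15.46 on the log2 scale on the HYAL1-labelled arrays and from 15.49 to 15.51 on the control-labelled arrays, higher in the same arrays as PLAUR and SERPINB7, with 0 of the 10 markers passing the test. Of the 10 markers, 6 were higher on the control-labelled arrays with groups apart (10.3% of all genes). Another 2 were lower with groups apart (14.1% of all genes), PDGFRA by -0.074 and POSTN by -0.15. POSTN had the lowest p of the list (limma, adjusted p = 0.0617). With the prior variance tied to the level, limma called 5 of the 10 higher on the control-labelled arrays and 1 higher on the HYAL1-labelled arrays (6.7% of all genes in either direction). The summed levels of the epithelial markers (10.34 to 10.35 and 10.33 to 10.37), the endothelial markers (9.34 to 9.43 and 9.41 to 9.47) and the leukocyte markers (9.01 to 9.04 and 9.002 to 9.04) overlapped between the groups. The part of these markers in the results was not tested, and in bulk RNA fewer cells of a type cannot be told apart from less RNA per cell.

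The sequences that precede the genes are shown first for the 3 genes with the largest differences, PLAUR, SERPINB7 and SERPINB2, because promoters of this pathway are known for AP-1 sites, and for ANXA2 as a gene that did not pass. AP-1 is the Fos and Jun dimer that responds to growth factors and phorbol esters. Each run covers 250 bases before and 50 bases after a start site in RefSeq, build GRCh38.p14, read 5′ to 3′ in the direction of the gene. PLAUR lies at chr19:43670120-43670419 on the minus strand, SERPINB2 at chr18:63887455-63887754 on the plus strand and ANXA2 at chr15:60397937-60398236 on the minus strand. For SERPINB7 the windows of 2 of its 3 start sites are given, at chr18:63775168-63775467 and chr18:63777531-63777830, both on the plus strand. Capitals mark matches to the AP-1 heptamer TGANTCA and to the TATA box TATAAA, on either strand.
PLAUR: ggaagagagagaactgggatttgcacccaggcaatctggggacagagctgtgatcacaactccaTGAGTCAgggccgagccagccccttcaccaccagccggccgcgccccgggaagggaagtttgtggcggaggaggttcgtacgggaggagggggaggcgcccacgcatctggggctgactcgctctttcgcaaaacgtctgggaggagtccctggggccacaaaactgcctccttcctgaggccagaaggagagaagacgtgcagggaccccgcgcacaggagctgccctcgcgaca
SERPINB7, start site 1: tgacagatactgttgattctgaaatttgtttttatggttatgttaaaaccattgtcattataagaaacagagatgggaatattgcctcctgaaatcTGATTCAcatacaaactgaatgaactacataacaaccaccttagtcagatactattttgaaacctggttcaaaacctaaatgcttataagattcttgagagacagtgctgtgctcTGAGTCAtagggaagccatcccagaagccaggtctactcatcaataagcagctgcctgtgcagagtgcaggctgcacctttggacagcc
SERPINB7, start site 2: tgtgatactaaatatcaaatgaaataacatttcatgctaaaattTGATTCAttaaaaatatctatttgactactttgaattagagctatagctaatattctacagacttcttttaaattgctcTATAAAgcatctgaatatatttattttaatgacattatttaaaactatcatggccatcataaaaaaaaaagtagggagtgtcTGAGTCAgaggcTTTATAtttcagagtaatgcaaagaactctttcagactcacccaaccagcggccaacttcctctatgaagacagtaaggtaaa
SERPINB2: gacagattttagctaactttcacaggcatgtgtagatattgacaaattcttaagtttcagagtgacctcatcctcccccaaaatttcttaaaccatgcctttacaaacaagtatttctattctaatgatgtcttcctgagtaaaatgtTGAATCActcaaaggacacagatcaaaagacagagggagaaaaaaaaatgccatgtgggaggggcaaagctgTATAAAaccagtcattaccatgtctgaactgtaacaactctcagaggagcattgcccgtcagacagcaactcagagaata
ANXA2: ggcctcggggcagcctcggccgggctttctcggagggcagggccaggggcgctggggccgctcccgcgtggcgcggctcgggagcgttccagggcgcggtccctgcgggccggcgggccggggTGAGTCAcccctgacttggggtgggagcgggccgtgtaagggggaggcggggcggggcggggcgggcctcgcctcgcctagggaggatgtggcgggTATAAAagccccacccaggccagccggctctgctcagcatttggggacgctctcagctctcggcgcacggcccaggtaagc

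The PLAUR window held 1 AP-1 heptamer, TGAGTCA, whose first base lay 186 bases before the start site. Both SERPINB7 windows held 2, with TGATTCA at 154 and TGAGTCA at 39 bases before the first of these start sites, and TGATTCA at 206 and TGAGTCA at 45 bases before the other. The window of that other start site also held TATA box matches at 127 bases and, on the opposite strand, at 33 bases before it. The window of the remaining SERPINB7 start site held no AP-1 heptamer. SERPINB2 had TGAATCA at 102 bases and a TATA box at 30 bases before its start. ANXA2, which did not pass the test, also had TGAGTCA at 127 bases and a TATA box at 31 bases before its start.

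Windows of 7 of the 9 genes were matched, 11 in all, and PLAT and SERPINF1 were not. An AP-1 heptamer occurred in 5 of the 11 windows, 2 of them of SERPINB7, and in 4 of the 7 genes, which are the 4 shown. The windows of PLAU, SERPINE2 and S100A10 held none. Of 35116 RefSeq promoters of the same length 7.71% hold it, a share per window and not per gene. The TATA box occurred in 3 of the 11 windows (11.5% of all promoters) and the SP1 box GGGCGG in 5 (45.0%), among them the window of S100A10 and 1 of the 2 windows of PLAU. The cyclic AMP element TGACGTCA occurred in 0 of the 11 windows and 1.85% of all promoters. Both strands were searched and the AP-1 heptamer and the cyclic AMP element share no match here. These are matches of letters in a window and not measured sites.

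Of the activators, PLAU encodes urokinase, the main activator in tissue remodelling. Its log2 value was 12.004, 12.04 and 12.05 on the HYAL1-labelled arrays and 12.14, 12.12 and 12.13 on the control-labelled arrays. The control-labelled arrays were the 3 highest and the groups did not overlap. The difference was 0.10 with a standard error of 0.0304, or 1.07-fold, with a 95% interval of 0.029 to 0.171, and did not pass (limma, adjusted p = 0.162). With the prior variance tied to the level, limma gave PLAU an adjusted p of 0.00717, and with the mean of its probe sets in place of the brightest the difference came to 0.056.

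PLAT, tissue plasminogen activator, is best known for clot lysis and is also made by fibroblasts. It read 11.84, 11.84 and 11.82 on the HYAL1-labelled arrays and 11.86, 11.87 and 11.84 on the control-labelled arrays. The groups overlapped, with the lowest control-labelled array inside the range of the other group. The difference was 0.022 with a 95% interval of -0.046 to 0.090 (limma, adjusted p = 0.748), so that a difference in PLAT as large as that of PLAUR lies outside its interval.

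PLAUR, the receptor, is a protein anchored in the membrane by a glycolipid that also meets integrins and vitronectin. Its log2 value was 8.71, 8.71 and 8.69 on the HYAL1-labelled arrays and 8.92, 8.94 and 8.96 on the control-labelled arrays. Within each group the 3 values lay close together and the groups were well apart, at 8.71 ± 0.0118 and 8.94 ± 0.0182 (SD, n = 3 each). The difference was 0.23 with a standard error of 0.0294 (limma, adjusted p = 0.0193). The difference stayed between 0.23 and 0.24 when any 1 array was left out, yet the adjusted p then came to 0.0626 to 0.0931, so the call depended on all 6 arrays.

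Among the serpins, SERPINB2, or plasminogen activator inhibitor 2, blocks urokinase and stays largely inside cells. Its probe set, like that of HYAL1, has no symbol and was named through the study's list of changed genes, so its values are given without a test and stay out of the counts. SERPINB2 read 9.18, 9.24 and 9.35 on the HYAL1-labelled arrays and 9.78, 9.57 and 9.70 on the control-labelled arrays. The groups did not overlap, though SERPINB2 spread more within each group than the other 8 genes, at 9.25 ± 0.0859 and 9.69 ± 0.109 (SD, n = 3 each). The difference was 0.43, or 1.35-fold, and 0.38 to 0.49 with any 1 array left out.

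SERPINB7, also called megsin, is a clade B serpin described in kidney mesangial cells and skin. It lies on chromosome 18 near SERPINB2. It is placed here with the other serpins, although its target protease is less well established. SERPINB7 read 10.56, 10.57 and 10.59 on the HYAL1-labelled arrays and 10.91, 10.82 and 10.89 on the control-labelled arrays. The lowest control-labelled array stood clear of the highest HYAL1-labelled array, and the group means were 10.58 ± 0.0171 and 10.87 ± 0.0445 (SD, n = 3 each). The difference was 0.30 with a standard error of 0.0346 (limma, adjusted p = 0.0148). With 1 array left out the adjusted p ran from 0.0431 to 0.0900, and SERPINB7 was called in 1 of these 6 fits, the one without control-labelled replicate 2.

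SERPINE2, protease nexin 1, inhibits thrombin and urokinase at the surface of fibroblasts. It read 11.28, 11.31 and 11.31 on the HYAL1-labelled arrays and 11.32, 11.35 and 11.34 on the control-labelled arrays. The groups just failed to overlap, but the difference of 0.038 had a 95% interval of -0.032 to 0.108 and did not pass (limma, adjusted p = 0.565). SERPINF1, pigment epithelium-derived factor, is a serpin by fold that does not inhibit proteases and acts against vessel growth. It read 9.57, 9.59 and 9.56 on the HYAL1-labelled arrays and 9.53, 9.56 and 9.59 on the control-labelled arrays. The SERPINF1 groups overlapped on this probe set, and the difference of -0.0079 had a 95% interval of -0.083 to 0.067 (limma, adjusted p = 0.930). Its sign turned with median centring.

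The surface complex of plasminogen gave values on opposite sides of 0. ANXA2, which carries plasminogen through S100A10, was the brightest of the genes. It read 13.62, 13.63 and 13.61 on the HYAL1-labelled arrays and 13.64, 13.65 and 13.62 on the control-labelled arrays. The ANXA2 groups overlapped, and the difference of 0.016 had a 95% interval of -0.052 to 0.084 (limma, adjusted p = 0.824).

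S100A10, the partner that binds plasminogen through its carboxyl end, was the gene with the opposite order of groups. It read 11.87, 11.88 and 11.87 on the HYAL1-labelled arrays and 11.70, 11.72 and 11.76 on the control-labelled arrays. The groups did not overlap, and the HYAL1-labelled arrays were the 3 highest, at 11.88 ± 0.0068 against 11.73 ± 0.0289 (SD, n = 3 each). The difference, control-labelled minus HYAL1-labelled, was -0.15 with a standard error of 0.0307 and a 95% interval of -0.222 to -0.0775, or 1.11-fold higher on the HYAL1-labelled arrays, and did not pass (limma, adjusted p = 0.0661). S100A10 passed in 6 of 11 other settings, with an adjusted p of 0.000401 where the prior variance followed the mean level, and in 0 of 6 fits with 1 array left out.

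**Figure D2:**
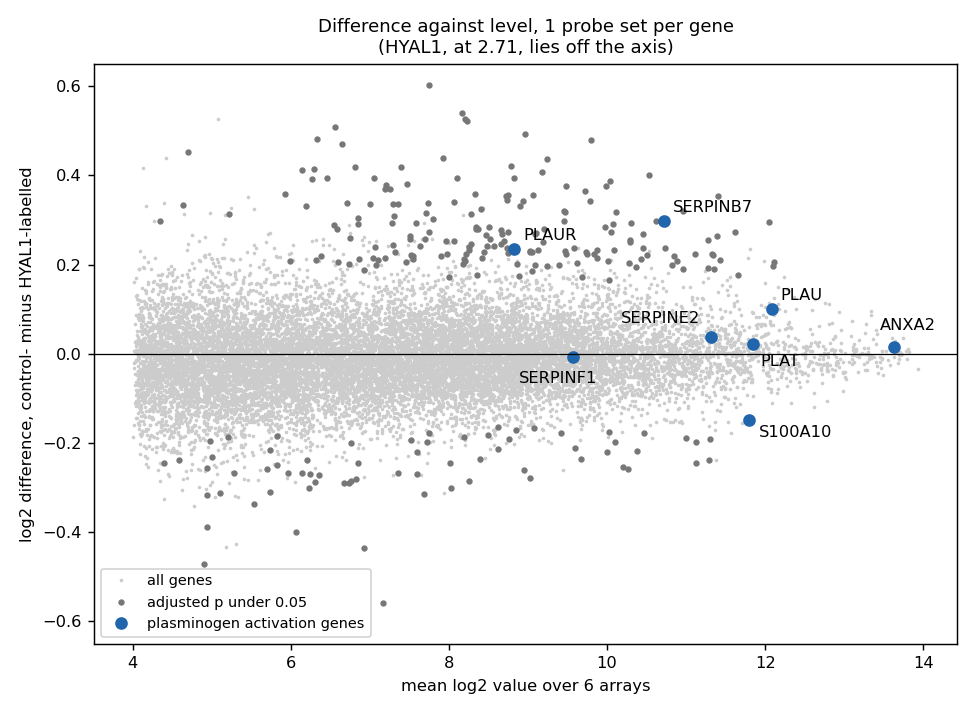
Log2 difference, control-labelled minus HYAL1-labelled (y axis), against the mean log2 value over 6 arrays (x axis) for 15277 genes, 1 probe set per gene. Dark grey points passed at an adjusted p under 0.05. PLAUR at 0.23 and SERPINB7 at 0.30 lie among these, S100A10 at -0.15 lies on the other side of 0, and PLAT, SERPINE2, SERPINF1 and ANXA2 lie close to 0.

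Most genes were read by several probe sets, which served to check the values above. All 5 probe sets of PLAUR were higher on the control-labelled arrays, by 0.23 to 0.32, and 4 of the 5 passed in the fit of all probe sets, of which 1.42% passed (limma, adjusted p = 0.0229 to 0.0508). Both probe sets of SERPINB7 passed there, with differences of 0.30 and 0.33 (limma, adjusted p = 0.0186 and 0.0198). Both probe sets of S100A10 differed by -0.15 and did not pass (limma, adjusted p = 0.0769 and 0.0976). The receptor, SERPINB7 and S100A10 thus gave the same sign on every probe set, as did PLAU, ANXA2 and SERPINF1. Probe sets of a gene were read on the same arrays and are not replicates.

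For the activators and the other proteins the probe sets differed less. The 3 probe sets of PLAU were higher on the control-labelled arrays by 0.025 to 0.10, with groups apart on 1 of them. Of the 7 probe sets of PLAT, 6 were higher on the control-labelled arrays and 1 was lower, over a range of -0.02 to 0.06. The PLAT groups were apart on 1 of them. SERPINE2 had 5 higher and 1 lower, from -0.11 to 0.074, and the lower one was below the background median on all arrays. Groups were apart on 3 SERPINE2 probe sets, all higher on the control-labelled arrays. The 5 probe sets of SERPINF1 were lower on the control-labelled arrays, by -0.063 to -0.0079, with groups apart on 2. The 6 probe sets of ANXA2 were higher there by 0.014 to 0.096, with groups apart on 3. None of the probe sets of these 5 genes passed the test across all probe sets.

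**Figure D3:**
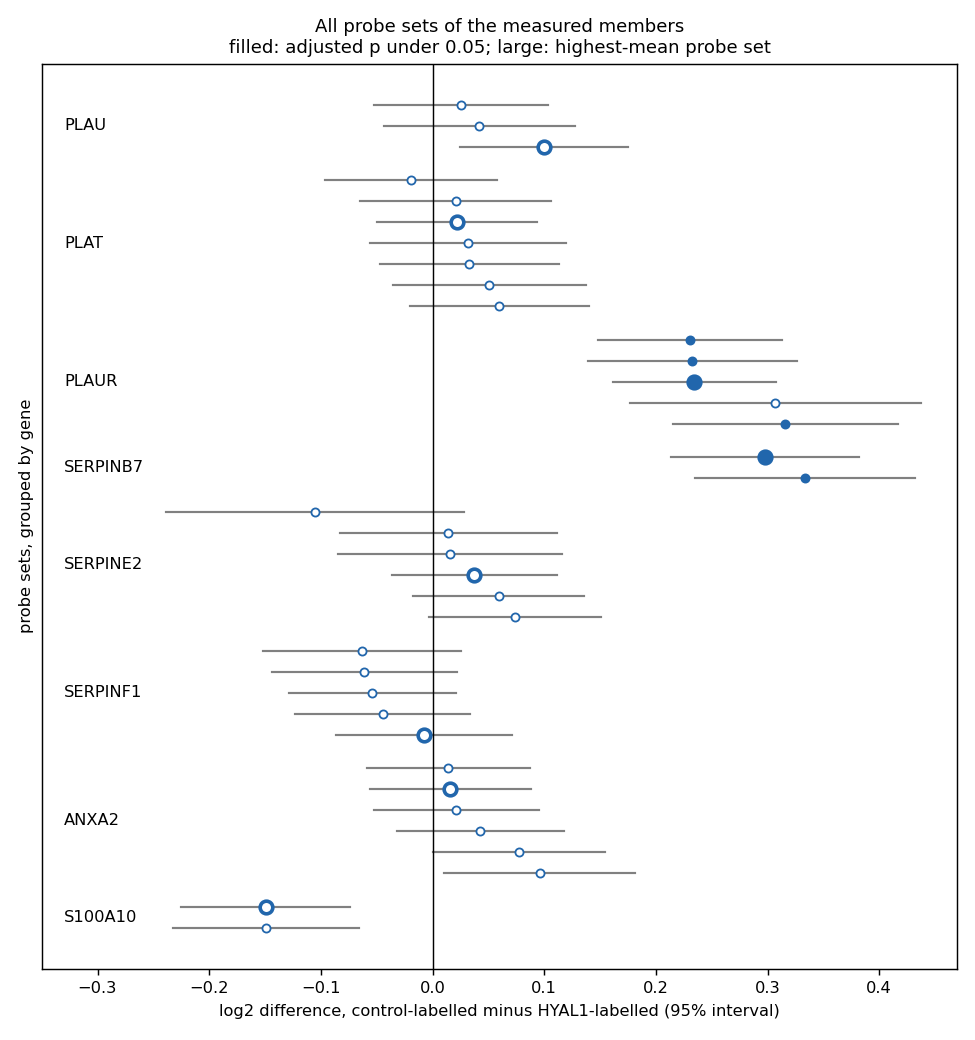
Log2 difference, control-labelled minus HYAL1-labelled (x axis), of all 36 probe sets with 95% intervals, grouped by gene along the y axis. Filled points, 4 of PLAUR and 2 of SERPINB7, have an adjusted p under 0.05 in the fit of all probe sets, and larger points are the probe set with the highest mean.

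**Figure D4:**
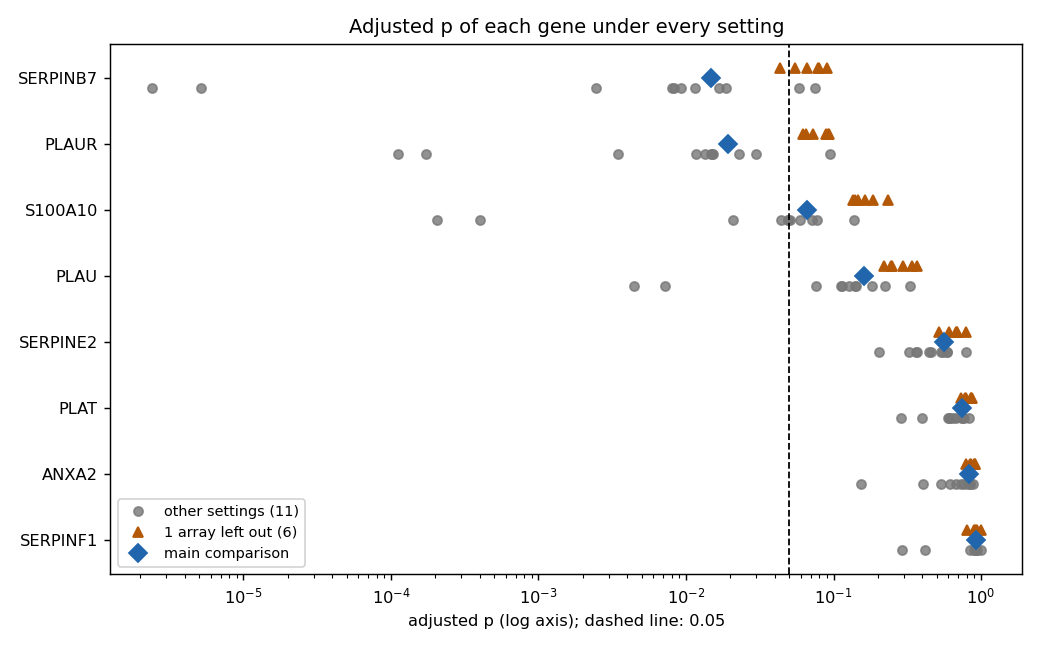
Adjusted p (x axis, log scale) of the 8 measured genes (y axis) in the main comparison, in 11 other settings and with each of 6 arrays left out, against the threshold of 0.05. SERPINB7 and PLAUR lie below 0.05 in most other settings and mostly above it with an array left out, S100A10 and PLAU lie on both sides, and SERPINE2, PLAT, ANXA2 and SERPINF1 lie above 0.05 throughout.

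Many serpin genes of clade B stand in a cluster on chromosome 18, and 6 of them were in the comparison. SERPINB2, on the same chromosome, stayed out of it for want of a symbol and differed by 0.43 with groups apart. Beside SERPINB7 at 0.30, SERPINB8 differed by 0.12 (limma, adjusted p = 0.253), and its sign turned with the probe set of lowest p. The remaining 4, SERPINB3, SERPINB5, SERPINB12 and SERPINB13, were above background on no array, with values from -0.18 for SERPINB5 (limma, adjusted p = 0.212) to 0.078 for SERPINB13. SERPINB7 was the only one of the 6 to pass, where 1.21% of all genes passed in its direction. It was already 1 of the genes followed here, so this count adds no support. Of the 21 other serpins measured, 17 were above background on no array. SERPINI1, neuroserpin, an inhibitor of tissue plasminogen activator in brain, was the 1 of the 21 that passed, where 1.66% of all genes did. SERPINI1 was at 8.14 ± 0.0222 on the HYAL1-labelled and 8.38 ± 0.0669 on the control-labelled arrays (SD, n = 3 each), a difference of 0.23 (limma, adjusted p = 0.0448).

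Further genes of the pathway were counted by list, each beside the 1.21% of all genes that passed higher on the control-labelled arrays and the 0.445% that passed higher on the HYAL1-labelled arrays. The list for plasminogen, its receptors and its clearance had 18 measured genes. Plasminogen itself was not among them, and 6 of the 18 were above background on no array. Of the 18, 1 passed and was higher on the control-labelled arrays, 0 passed in the other direction, and the list's median difference was 0.023. It was SRPX2, a secreted protein that binds the urokinase receptor, at 8.36 ± 0.0549 on the HYAL1-labelled and 8.60 ± 0.0541 on the control-labelled arrays (SD, n = 3 each). Its difference was 0.24 with a standard error of 0.0433 (limma, adjusted p = 0.0469). SRPX2 thus differed in the same direction as PLAUR, its binding partner.

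Of 18 measured substrates of plasmin and urokinase, 7 were above background on no array. From this list 1 gene passed, higher on the control-labelled arrays, and the median was 0.021. It was BDNF, a neurotrophin whose precursor plasmin can cut, at 11.32 ± 0.0247 and 11.53 ± 0.0123 (SD, n = 3 each) on the HYAL1-labelled and control-labelled arrays. Its difference was 0.21 (limma, adjusted p = 0.0247). Of 16 coagulation genes and thrombin receptors, 7 were above background on no array. Here too 1 gene passed, also higher on the control-labelled arrays, with a list median of 0.0097. It was F2RL2, a protease-activated receptor that serves thrombin, at 9.37 ± 0.0483 and 9.60 ± 0.0129 (SD, n = 3 each), with a difference of 0.22 (limma, adjusted p = 0.0339).

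The families of the receptor and of the surface complex had 0 called genes each. Of the genes measured, 11 of 16 in the receptor's family and 8 of 21 in that of the complex were above background on no array. Among 16 proteins that share the Ly6 and uPAR fold with PLAUR, the list median was 0.050, 4 genes had an unadjusted p under 0.05 (17.4% of all genes), and with the prior variance tied to the level limma called 1 (6.7% of all genes). That was BAMBI, a decoy receptor of TGFβ signaling, with a difference of 0.21 (adjusted p = 0.0661 from the limma comparison used throughout). Among 21 other annexins and S100 proteins the list median was -0.04, 3 genes had an unadjusted p under 0.05 and the same alternative called 1, both smaller shares than those 17.4% and 6.7% of all genes. ANXA3 had the lowest p of that list, with a difference of 0.15 (limma, adjusted p = 0.107). SRPX2, BDNF, F2RL2 and SERPINI1 passed in 0 of the 6 fits with 1 array left out, and in 8, 10, 9 and 6 of the 11 other settings.

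**Figure D5:**
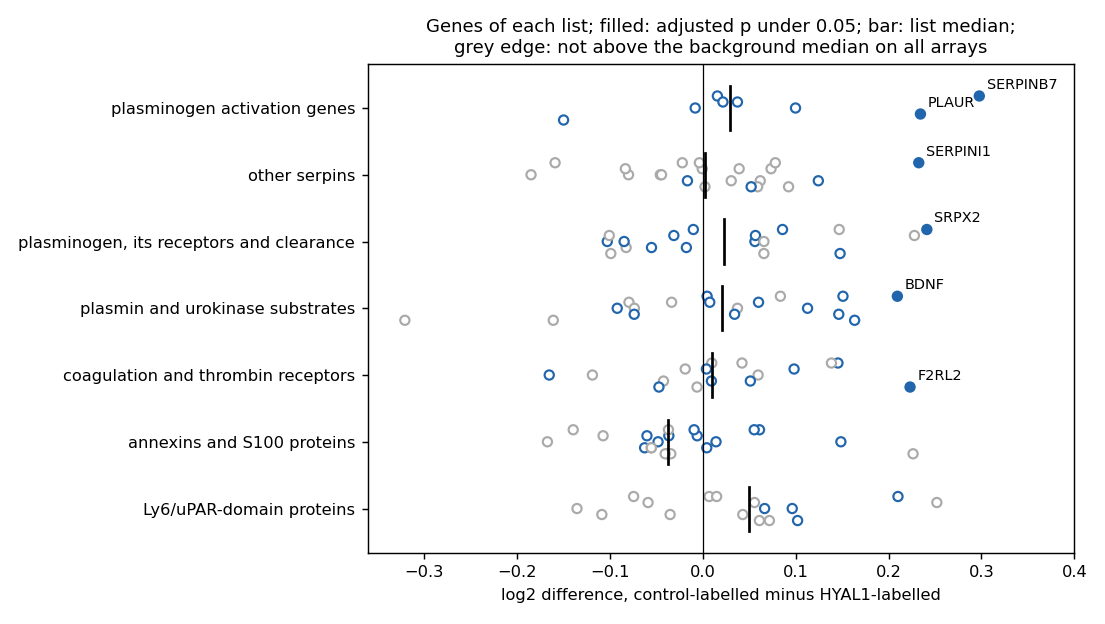
Log2 difference, control-labelled minus HYAL1-labelled (x axis), of the genes of each list (y axis), 1 point per gene, with the list median as a bar. Filled points passed at an adjusted p under 0.05 and carry their names, and grey edges mark genes not above the background median on all arrays.

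The genes whose values ran most nearly parallel over the 6 arrays were GPRC5A for PLAUR (Pearson r = 0.999) and SSR3 for SERPINB7 (r = 1.00). Each of the 2 had 284 of 15269 other genes above 0.95. Among the genes themselves r was 0.970 between PLAUR and SERPINB7, 0.927 between PLAU and PLAUR, and -0.959 between SERPINB7 and S100A10. These values are a description over 6 arrays that share the difference between the groups.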

How the data were processed

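The deposited values are on the log2 scale, from RMA run by the authors. Affymetrix Power Tools is also named in the notes of the submitters, and no version is given in the sources used here. RMA corrects background, quantile-normalizes and summarizes probes, which narrows differences between arrays. The CEL intensities were not used here, and the number of arrays limits precision. Of the 39341 probe sets, 36091 have 1 symbol, 1397 several and 1780 none, 73 are control probe sets, and the gene table of GRCh38.p14 changed 0 symbols. HYAL1 and SERPINB2 were placed by their 6 values, matched within 0.001, in the study's list of changed genes, whose fold changes and p-values were not used. A gene with several probe sets (9345 genes) was represented by the brightest, and control probe sets and those with several or no symbols were left out, except that of HYAL1, which is 1 of the 15277 genes fitted and of the 253 called.

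Groups were compared over 15277 genes in R 4.3.3 with limma 3.58.1 (empirical Bayes with 1 prior variance and 3.25 prior degrees of freedom), with Benjamini-Hochberg adjustment and a threshold of 0.05. The comparison was tested on simulated data. It called 40 of 67 genes changed 1.2-fold, 62 of 67 changed 1.5-fold and 7 of 15077 unchanged genes. Noise was drawn independently for each gene and array. Shifts shared by the genes of an array, and changes smaller than 1.2-fold, were therefore not simulated. Background was the median of 9 background probe sets on each array (6.69 to 6.90). Alternatives were other probe set rules, a filter on the lowest 30% of levels, renewed quantile normalization, median centring, a prior variance trend, the same made robust, array weights, an unpaired t-test, a replicate block and each array left out. Named were all members, HYAL1, up to 4 passed genes of each list (or the 1 of lowest p) and the nearest pattern of each passed member. The clade B serpins, and the genes of the closing observations, were chosen after their values were seen. Members and lists were chosen with earlier results of these data known. Promoters came from RefSeq through Python 3.11.15 and pandas 2.3.3, and figures from matplotlib 3.10.9.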

Additional observations from a re-analysis of the deposited data

How the results depend on the processing

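The HYAL1 difference, a description, was 2.66 to 2.73 with 1 array left out. Against 2 of the 8 plasminogen activation genes and 253 of all genes in the comparison used, limma called 4 and 1024 with a prior variance trend and 4 and 1079 with a robust trend. The unpaired t-test called 1 and 90, and leaving out 1 array gave 0 to 1 and 15 to 52. All genes called came to 729 with the probe set of lowest p, 673 without the lowest 30% of levels and 406 with array weights. With the replicate number as a block, 0 of the 8 and 1 of all genes passed, and the adjusted p was 0.0945 for PLAUR and 0.0754 for SERPINB7. Same-numbered arrays correlated at 0.063, -0.023 and 0.235 in their deviations from the group mean. Of the 3 HYAL1-labelled arrays, 1 correlated best with the control-labelled array of its own number. Whether the numbers mark a pairing is not given by the labels and was not tested. SERPINF1 turned to 0.00045 with median centring and ran from -0.024 to 0.0094 with 1 array left out (0.0094 without control-labelled replicate 1), and SERPINB8 turned to -0.15 with the probe set of lowest p. SERPINB7 missed the threshold under the unpaired t-test (adjusted p = 0.0585 over all genes). The causes were not tested, other than that fits without 1 array hold fewer samples. No counts stand behind these values, and genes near background, such as SERPINB5, are limited by signal.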

Other observations

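Further genes around plasmin formation stood just outside the threshold. Their groups did not overlap, which also held for 24.4% of all genes. The genes were picked after their values were seen, so the separation adds no support. PROS1 and GAS6 are related vitamin K-dependent proteins, and their group differences had opposite signs. PROS1, the anticoagulant protein S, was at 8.51 ± 0.0266 on the HYAL1-labelled and 8.35 ± 0.0334 on the control-labelled arrays (SD, n = 3 each), a difference of -0.16 (limma, adjusted p = 0.0640). GAS6, a ligand of the TAM receptors, was at 12.20 ± 0.0229 and 12.35 ± 0.0204 (SD, n = 3 each), a difference of 0.15 (limma, adjusted p = 0.0713). Among substrates, HGF, the growth factor whose precursor urokinase can activate, differed by 0.16 (limma, adjusted p = 0.0866), and by 0.042 with the mean of its probe sets (limma, adjusted p = 0.484). LTBP1, which tethers latent TGFβ in the matrix, differed by 0.15 (limma, adjusted p = 0.0723), and by 0.085 with the mean of its probe sets (limma, adjusted p = 0.269). MMP14, a membrane protease, differed by 0.15 (limma, adjusted p = 0.0934). These 5 genes passed in 3 to 5 of 11 other settings and in 0 of 6 fits with 1 array left out.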
